A study of Homo sapiens with 30 samples.

Results

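The regions described here are the lamina-associated domains of HCT116, a human colorectal carcinoma cell line, in the G1 and S phases of the cell cycle. All autosomal intervals (chromosomes 1 to 22) of the consensus list of each stage were taken, 329 intervals in G1 and 266 in S. These 595 intervals are part of 1069 that the series gives for HCT116 over all chromosomes and 3 stages. Per the labels, HCT116 cells were transfected with a construct of the peroxidase APEX2 fused to lamin B1, and each stage had 2 pulled-down and 2 input DNA samples. No untransfected control is named, how cells of a stage were obtained is not given in the sources used here, and the G2 list (341 autosomal intervals) was used only to see what became of the regions that changed. RNA levels came from 2 nuclear libraries of HEK293FT, a human embryonic kidney line, which were asynchronous and transfected with the same kind of fusion. They are therefore levels in another cell line and in no particular stage.

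The nuclear lamina is a protein meshwork beneath the inner nuclear membrane, and lamin B1 is one of its filament proteins. Lamina-associated domains are long, gene-poor stretches of chromatin that lie against it, mostly with silent genes and late replication. APEX2 biotinylates what is near it, so that DNA close to the fusion can be pulled down with streptavidin. The genome is replicated in S phase, and comparing both lists shows which domains are called in both stages and which are not.

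Each stage has 1 list without scores, on a grid of 100 kb, so no spread between replicates can be given and no test was made. Every difference below is a difference between these 2 lists, and a step of 100 kb is the smallest that most edges can make. The nuclear libraries held 6517331 and 6710602 counts, and a count of 3, taken as the floor, equals 0.460 and 0.447 CPM (counts scaled to the library total). Levels are given as counts, or as CPM per kb of exons where genes are compared. Intervals and genes are described in hg19 coordinates.

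The sequences shown are RefSeq's mature microRNAs and, further on, promoters (GRCh38.p14 tables), for transcripts in stretches that changed. A pair of microRNA clusters with a seed in common moved in opposite directions, and another on chromosome 21 held let-7c. MicroRNAs pair with target RNAs chiefly through their seed, bases 2 to 8, which is in capitals. The chromosome 19 cluster lost its domain in part, with 14 of its 46 symbols in a G1 interval that has no counterpart in S, while the other 32 lay outside in both stages. The mature forms below stand for 2 of its shared seeds and for the seed that it shares with chromosome 13.
miR-520e-3p: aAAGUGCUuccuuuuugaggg
miR-520a-3p: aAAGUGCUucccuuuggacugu
miR-519c-3p: aAAGUGCAucuuuuuagaggau
miR-519b-3p: aAAGUGCAuccuuuuagagguu
miR-526b-3p: gAAAGUGCuuccuuuuagaggc
The first pair shares the seed AAGUGCU, the second pair AAGUGCA, and miR-526b-3p has AAAGUGC. On chromosome 13 the start of the miR-17-92 host gene and its 6 microRNAs joined a domain in S, and 2 of them also carry AAAGUGC.
miR-17-5p: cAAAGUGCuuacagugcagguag
miR-20a-5p: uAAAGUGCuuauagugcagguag
miR-19a-3p: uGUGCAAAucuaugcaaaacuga
miR-19b-3p: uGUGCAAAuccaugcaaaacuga
miR-92a-3p: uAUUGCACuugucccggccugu
The chromosome 21 cluster, at the edge of a domain that shortened, holds 3 microRNAs with 3 different seeds.
let-7c-5p: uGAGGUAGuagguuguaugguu
miR-99a-5p: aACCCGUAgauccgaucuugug
miR-125b-5p: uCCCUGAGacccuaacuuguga
These clusters were singled out after the lists had been compared.

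From G1 to S the domains became fewer and covered less of the genome, but most of what they covered stayed. G1 domains covered 533 Mb, 18.5% of the autosomal span of 2879 Mb, and S domains 495.4 Mb, 17.2%. They shared 471 Mb, which is 88.4% of G1 and 95.1% of S. A total of 62.0 Mb left (in a G1 domain, not in S) and 24.4 Mb joined (in S, not in G1), so that 2.54 times as much left as joined. The net change was -37.6 Mb.

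Joining overlapping G1 and S intervals gave 327 groups. In 45 a G1 interval had the same edges in S, in 198 it was kept 1 to 1 with at least 1 moved edge, 4 G1 intervals were split into 8, and 17 were merged into 8. There were 65 G1 intervals (19.8%) with no base in S, here called lost, and 7 S intervals (2.63%) with no base in G1, here called gained. Moved edges gave 31.3 Mb, or 50.4%, of what left, and lost intervals 27.3 Mb, or 44.1%. Of what joined, 18.3 Mb (75%) came from moved edges, 3.3 Mb from merged intervals and 2.8 Mb from gained ones.

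The domains that were lost were short. Their median length was 300 kb (range 100 to 1400 kb), against 1400 kb (100 to 14100 kb) for G1 intervals kept 1 to 1. Of the 34 G1 intervals of 200 kb or less, 28 (82.4%) were lost, and of the 42 of 300 to 500 kb, 21 (50%). The share was 17.9% (14 of 78) at 600 kb to 1 Mb and 2.17% (2 of 92) at 1.1 to 2 Mb, and none of the 83 longer ones was lost. As lost means no base in S, a long interval meets this condition less easily than a short one. Without intervals of 200 kb or less in either list, 41 G1 intervals had no base in the remaining S list. Some of the 41 did overlap an S interval of 200 kb or less, which that setting leaves out. Gained intervals were short too, with a median of 400 kb and a range of 100 to 600 kb.

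**Figure D1:**
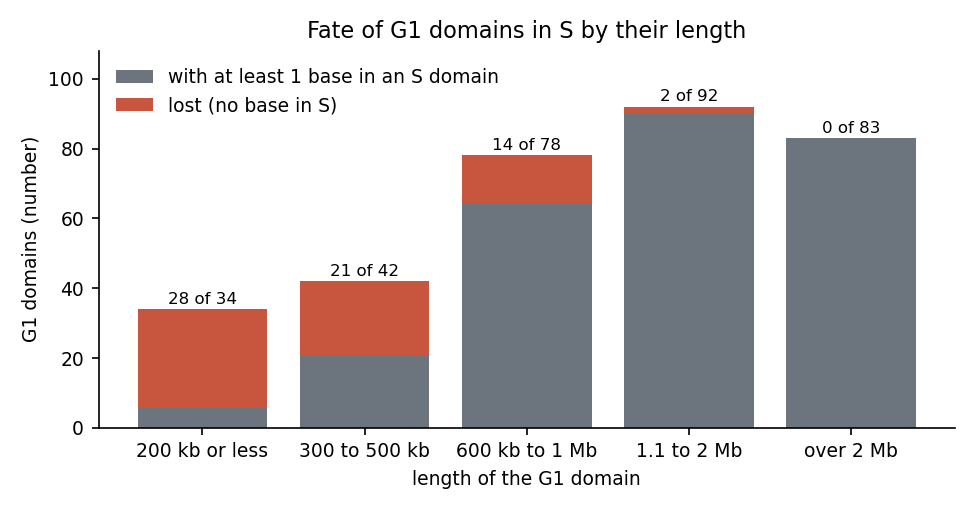
Number of G1 domains (vertical axis) by their length (horizontal axis), with the lost ones, which have no base in S, stacked above those with at least 1 base in S. The lost share falls from 28 of 34 at 200 kb or less to 0 of 83 over 2 Mb.

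Among the 243 intervals kept 1 to 1, edges mostly stayed or made 1 grid step. Of their 486 edges, 200 (41.2%) did not move, 175 (36.0%) moved inward and 111 (22.8%) outward. A total of 378 edges (77.8%) lay within 100 kb of their place in G1, 101 of them having moved inward and 77 outward. The median move was 100 kb in either direction, and the largest were 700 kb inward and 1100 kb outward. Both edges moved inward in 41 intervals and outward in 18, and 110 intervals were shorter in S while 71 were longer. Inward moves were more frequent than outward ones in intervals of 600 kb to 1 Mb (45 against 33), of 1.1 to 2 Mb (73 against 33) and over 2 Mb (45 against 30). In those of 500 kb or less, 12 edges moved inward and 15 outward, counting only those of that length that were still called in S.

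**Figure D2:**
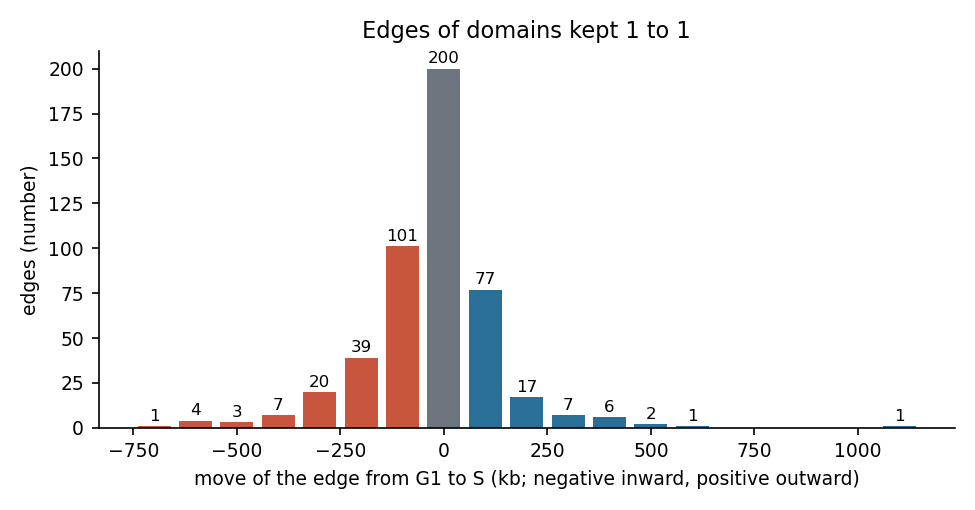
Number of edges (vertical axis) by how far they moved from G1 to S in kb (horizontal axis, negative inward, positive outward, to the nearest 100 kb) for the 243 domains kept 1 to 1. The bar at 0 holds 200 edges, and the bars at 100 kb hold 101 inward and 77 outward.

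Gaps between domains closed mainly where they were narrow. G1 had 22 gaps of 300 kb or less, of which 8 (36.4%) were wholly covered in S, and 1 of 13 at 400 to 500 kb and 1 of 31 at 600 kb to 1 Mb were. None of the 241 wider gaps was covered. The gap at chr16:6300001-6400000 was covered by a moved edge while the G1 interval beyond it was lost, so no domains merged there. S had 9 gaps of 300 kb or less, 3 of them covered in G1.

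Chromosomes differed widely in how much of their G1 domains left. The share was lowest on chromosome 5 (3.72%), had a median of 12.4%, and was highest on chromosome 22 (61.4%), which has only 3 G1 intervals, 1 of them present in S. Chromosomes 15 (30.5%), 19 (29.7%), 12 (27.7%) and 21 (21.1%) followed. More bases left than joined on 17 of 22 chromosomes, fewer on chromosomes 5 and 6, and as many on 2, 3 and 11. Chromosomes 14, 15, 19, 21 and 22 gained no base at all. Across the 22 chromosomes the share that left went with the number of gene starts per Mb at a Pearson r of 0.418 and a Spearman rho of 0.531. This is a description, as all chromosomes come from the same pair of lists.

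**Figure D3:**
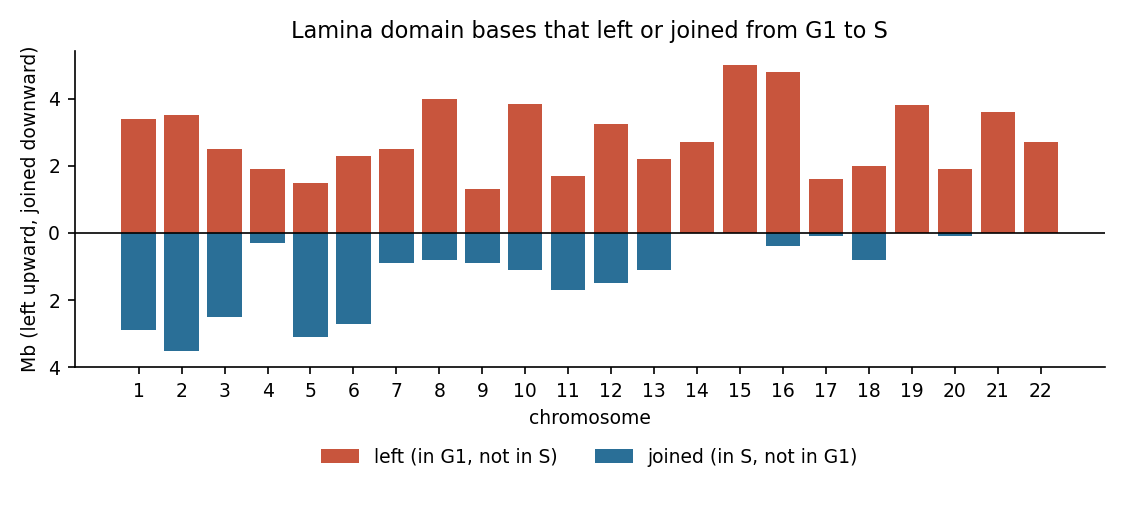
Mb of domain that left (upward bars) and joined (downward bars) from G1 to S on each autosome (horizontal axis). The most left on chromosome 15, 5.0 Mb, and chromosomes 14, 15, 19, 21 and 22 have no downward bar.

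Much of what left was a domain again in G2. The G2 list covered 66.0% (40.9 Mb) of what had left by S, 72.5% (17.7 Mb) of what had joined, 95.3% of what G1 and S shared, and 2.45% of the sequence outside both. Of the 65 lost intervals, 33 lay wholly in G2 domains and 24 had no base there. Of the 7 gained, 5 lay wholly in G2 and 1 not at all.

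A larger share of lost than of kept intervals lay beside long gene-free stretches. In each chromosome the longest stretch without an annotated gene was located. It measured from 3.20 Mb on chromosome 18 to 21.4 Mb on chromosome 1, and on chromosomes 13, 14, 15, 21 and 22 it began at base 1. The autosomal span counts these stretches, and how well reads can be placed in or beside them was not tested. Of the lost intervals, 10 of 65 (15.4%) touched it, against 17 of 243 (7%) kept 1 to 1, and 3 of the 5 lost intervals of at least 1 Mb did. Within 3 Mb of a chromosome end lay 9 lost intervals (13.8%) and 15 kept ones (6.17%). The part of such positions in the losses was not tested. With every interval within 1 Mb of such a stretch left out of both lists, the net change was -22.3 Mb. Each list was filtered on its own, so an S interval whose G1 counterpart was left out counts as joined there. The bases that joined were thus 26.3 Mb under that setting, more than with all intervals, and part of the smaller net change comes from this.

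The longest lost intervals held few genes with nuclear RNA. At chr15:20000001-21400000, 1400 kb were lost with 13 gene starts, among them the pseudogenes HERC2P3 and NBEAP1, and none was detected, meaning at 1 CPM or more in both nuclear libraries. HERC2P3 had 2 and 1 counts, and near-identical copies make such counts uncertain. The other lost interval of 1400 kb, chr22:48300001-49700000, held FAM19A5, which encodes a small secreted protein and had 0 counts in both libraries. At chr10:44300001-45300000, CXCL12, the chemokine ligand of CXCR4, had 19 and 29 counts. At chr13:19000001-20000000 the tubulin gene TUBA3C had 0 counts in both, and at chr1:142500001-143500000 the pseudogene ANKRD20A12P had 1 and 0. G2 domains covered all of 4 of these 5 intervals and 1300 kb of the one on chromosome 15.

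The gained intervals were short and held few gene starts. SOX14, a transcription factor of the developing brain, started in the 500 kb gained at chr3:137000001-137500000, had no count in either library, and was not in a G2 domain. SRRM4, a splicing regulator of neurons, started in the 500 kb gained at chr12:119100001-119600000 and had 1 and 0 counts. The dopamine receptor gene DRD2, in the 400 kb gained at chr11:113000001-113400000, had 3 and 1 counts. Its neighbours ANKK1 and TTC12 had 11 and 5, and 69 and 36. UNC93A, TTLL2 and TCP10 started in the 400 kb gained at chr6:167600001-168000000 and had at most 17 counts, and the longest gained interval, 600 kb at chr5:157800001-158400000, held 1 gene start.

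The split and merged domains differed in what lay in the changed stretches. The 4 splits, at chr16:31900001-35300000, chr12:33100001-34800000, chr11:48200001-50800000 and chr4:49000001-49700000, held 3 gene starts in all that left, 1 of them ALG10, an enzyme of N-glycan precursor assembly with 269 and 168 counts. With intervals within 1 Mb of the longest gene-free stretch of a chromosome left out, there were 0 splits. The largest merger joined 3 G1 intervals into 1 of 4000 kb at chr6:162600001-166600000 with 1300 kb joined. QKI, an RNA-binding protein of myelination, started there and had 870 and 722 counts, and T, the brachyury transcription factor of mesoderm, had 13 and 8. On chromosome 2, a merger at chr2:800001-3100000 took in PXDN, a matrix peroxidase, with 472 and 375 counts. In another, at chr2:3900001-8100000, the interferon-induced genes RSAD2 and CMPK2 had at most 1 count while RNF144A, a ubiquitin ligase, had 77 and 69. At the end of chromosome 3, chr3:1-4300000, CRBN, a substrate receptor of a ubiquitin ligase, had 97 and 101 counts, and TRNT1, which adds CCA to transfer RNAs, 111 and 61. So stretches that joined held genes with nuclear RNA in this other line as well as silent ones.

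Among domains kept 1 to 1, the 5 with the most bases joined gained 500 to 1400 kb each. The domain at chr5:168500001-170000000 grew from 100 to 1500 kb, all of the growth being covered in G2. Its new part held the starts of 14 genes, among them SLIT3, a guidance ligand of axons, with 19 and 42 counts, DOCK2, a regulator of white blood cell migration, with 2 and 4, and KCNIP1, a potassium channel subunit, with 1 and 1. NCKAP5 on chromosome 2 had 217 and 147 counts, and KAZN on chromosome 1, a protein of cell junctions, 98 and 80. At chr3:64200001-65300000, where 200 kb left at the other edge, 500 kb with ADAMTS9, a matrix protease with 177 and 209 counts, and PRICKLE2, of planar cell polarity, with 66 and 85, joined in S, and none of them lay in G2. RMST, a long noncoding RNA gene of neural development, joined at chr12:97400001-98400000 with 0 counts.

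The largest cut from a kept domain lay on chromosomes 17 and 19, with 900 kb each. At chr17:31300001-33200000, TMEM132E, a membrane protein gene, had 150 and 170 counts and SPACA3, a sperm protein, 2 and 0. On chromosome 11, 700 kb left a domain at chr11:83000001-84600000 without a gene start. On chromosome 14, a domain at chr14:19000001-20600000 shrank from 1600 to 800 kb, and 14 olfactory receptor genes lay in what left.

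A gene was assigned to a domain by its start. Of 25765 autosomal genes, 1375 lay in a domain in both stages, 369 (1.43%) left, 130 (0.505%) joined and 23891 lay outside. Of the 1744 that began in a G1 domain, 21.2% left. Per Mb there were 2.92 gene starts in shared sequence, 5.95 in what left, 5.33 in what joined and 10.3 outside, so the sequence that changed had more genes than shared domains and fewer than the rest. Of the 369 genes that left, 310 (84.0%) were again in a G2 domain, and of the 130 that joined, 88 (67.7%).

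Genes that changed were detected in nuclear RNA more often than those of shared domains and less often than those outside. For genes that left, a large part of the difference from shared domains came from chromosome 19. Of all genes 60.6% were detected, and 64.0% of those outside. The shares were 14.9% of shared genes, 23.6% (87) of those that left and 26.2% (34) of those that joined. Without chromosome 19 they were 12.6% of shared genes, 13.3% (37 of 278) of those that left and 26.2% of those that joined. The higher share among genes that left was thus almost gone without that chromosome. Among genes that left, those in lost intervals were detected in 17.5% (35 of 200) and those at edges of, or gaps in, kept intervals in 30.8% (52 of 169). Both shares include chromosome 19 and were not recomputed without it. At the kept domain chr19:36700001-38200000, 21 of 25 genes that left were detected. In lost intervals, the numbers were 9 of 36 at chr19:53500001-54200000 and 9 of 12 at chr19:58400001-58700000. Median levels, of the mean of both libraries, were 0 CPM per kb in shared domains, 0.0178 among genes that left, 0.0597 among those that joined and 2.92 outside. In each library alone the median of genes that left was 0. Without chromosome 19 their median of the mean was 0 as well, as in shared domains.

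**Figure D4:**
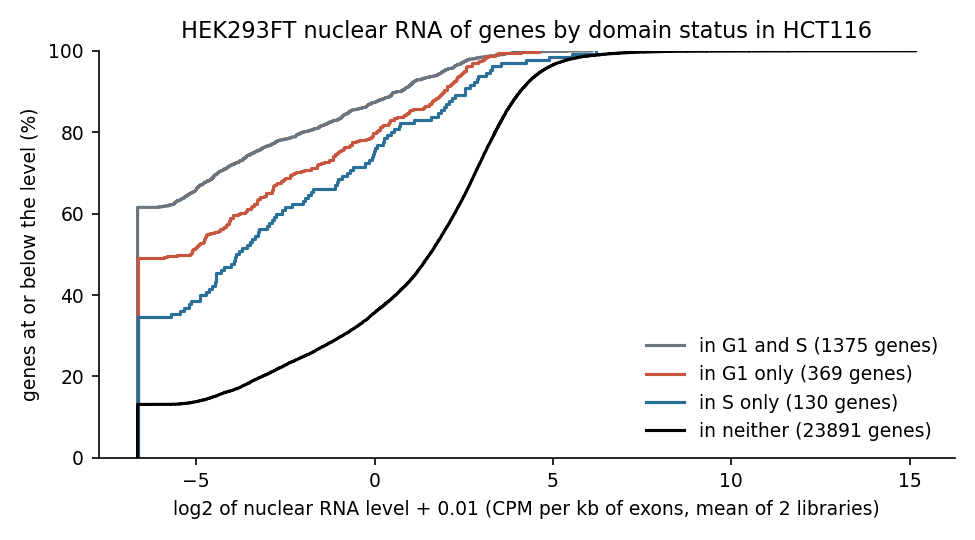
Share of genes at or below a nuclear RNA level (vertical axis, %) against the level (horizontal axis, log2 of CPM per kb of exons plus 0.01, mean of 2 HEK293FT libraries) for genes in domains in both stages, in G1 only, in S only or in neither. The line of shared genes is highest at the low end, with 61.5% at 0, and that of genes outside is lowest, with 13.1%.

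Zinc finger genes were the protein-coding list with the most members that left, and all of these were on chromosome 19. The list holds DNA-binding proteins of the ZNF, ZFP, ZSCAN and ZKSCAN kind, many of which recruit silencing complexes to repeats. Of its 602 members 75 stayed, 53 left and 1 joined, and 41.4% of the 128 members in G1 domains left. On chromosome 19, 51.0% of 104 members in a G1 domain left, and so did 50.7% of the 75 genes there that are not on the list. On the other autosomes, 0 of 24 left. Their share on that chromosome was thus that of their neighbours. The most list members left in 3 places. At chr19:36700001-38200000 a domain of 1500 kb kept 600 kb, and 25 genes left, 18 of them on the list. The lost interval at chr19:53500001-54200000 held 36 gene starts, 13 of them on the list, and that at chr19:58400001-58700000 held 12, of which 10 were. What left at these places was wholly covered in G2. Over the whole chromosome, 49 of the 53 zinc finger genes that left lay in G2 domains.

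Most of the zinc finger genes that left had nuclear RNA. Of the 53, 40 (75.5%) were detected, beside 62.7% of the 51 on chromosome 19 that stayed and 89.3% of the 178 outside. Among chromosome 19 genes not on the list, 26.3% of those that left and 29.7% of those that stayed were detected. ZNF146 had 583 and 659 counts (23.2 and 25.5 CPM per kb), the highest level among genes of at least 300 exonic bases that left. It starts at 36705504, just inside the G1 edge at 36700001, so its place in G1 rests on that edge. ZNF160, in a lost interval, had 303 and 322 counts, ZNF540 51 and 29, ZNF569 75 and 78 and ZNF566 157 and 129. HKR1, a zinc finger gene whose symbol the list does not match, had 290 and 184. In contrast ZNF578, in the lost interval at chr19:52800001-53000000, had 3 and 0, and 2 of the 7 members in that interval were detected. The list holds antisense and readthrough symbols too, and reads of overlapping genes were counted for each of them without regard to strand.

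Other genes with high nuclear levels also left, one by one. GOLGA3, a Golgi protein, had 960 and 1212 counts (15.4 and 18.8 CPM per kb), UQCRFS1, a subunit of respiratory complex III, 75 and 103, and USP14, a proteasome-bound deubiquitinase, 276 and 289. NRN1, a protein of neurite growth, had 61 and 258, unequal between the libraries, and MED10, a Mediator subunit, had 48 and 67. Among genes of at least 300 exonic bases that joined, MIR17HG, the host of miR-17-92, was highest with 773 and 1189 counts (23.6 and 35.3 CPM per kb), followed by POU3F3, a neural transcription factor with 383 and 316, and TSN, which encodes translin, with 227 in each. SPDL1, a spindle protein, had 266 and 181. Several of these places rest on a stretch of 100 kb, the smallest step most edges can make. GOLGA3 left with such a stretch, and most of the gene (133345495 to 133405426) lay outside its G1 domain, which began at 133400001. USP14 left with a lost interval of 100 kb, and POU3F3 and TSN joined in stretches of 100 kb. The stretches of MED10, NRN1, UQCRFS1 and SPDL1 were 300, 400, 500 and 1100 kb.

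The move of MIR17HG, too, rests on 1 grid step. The domain at chr13:92000001-95100000 in S began at 92100001 in G1, and the gene starts at 92000074, just inside the new edge. Most of the 250 bases before the start thus lay outside the domain in both stages. Neither the gene nor its 6 microRNAs lay in a G2 domain. Its promoter, the 250 bases before the start, is shown with each CG in capitals, since this gene had the highest nuclear level among those of at least 300 exonic bases that joined (GRCh38.p14, chr13:91347437-91347686, plus strand).
MIR17HG: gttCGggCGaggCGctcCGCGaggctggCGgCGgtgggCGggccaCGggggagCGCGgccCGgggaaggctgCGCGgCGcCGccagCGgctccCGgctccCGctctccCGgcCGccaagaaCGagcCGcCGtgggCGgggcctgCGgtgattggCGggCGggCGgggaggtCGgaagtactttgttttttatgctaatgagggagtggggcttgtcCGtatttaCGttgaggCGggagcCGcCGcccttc
For comparison, this is the same window of ZNF160, from the lost interval on chromosome 19 (GRCh38.p14, chr19:53103423-53103672, minus strand).
ZNF160: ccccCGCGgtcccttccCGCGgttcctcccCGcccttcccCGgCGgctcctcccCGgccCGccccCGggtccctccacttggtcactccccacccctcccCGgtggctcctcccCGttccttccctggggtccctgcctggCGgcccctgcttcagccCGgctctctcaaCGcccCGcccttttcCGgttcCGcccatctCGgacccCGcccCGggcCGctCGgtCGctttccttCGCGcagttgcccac
The motif searched was CG, which reads the same on both strands, and 93.6% of 27305 promoter windows of this length hold it at least once. MIR17HG has 35 of them and ZNF160 26, and the median window has 11. Fewer CGs than in MIR17HG were found in 94.4% of windows, and fewer than in ZNF160 in 80.8%. These windows were chosen after their levels were seen, and a CG count says nothing about binding or methylation here.

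Of 1705 microRNA symbols on the autosomes, 104 stayed, 34 left and 14 joined, and the share of those in G1 that left, 24.6%, was close to the 21.2% of all genes. The 14 of chromosome 19 that left and the 3 of chromosome 21 lay in G2 domains again. The domain edge at 54200000 fell inside the chromosome 19 cluster, between 54198547, the end of the last symbol that left, and 54265684, the end of the cluster. All 14 had at most 1 count in each nuclear library, and the 6 of chromosome 13 had between 2 and 52. A count at such a symbol does not tell precursor from mature RNA. MicroRNA symbols with several copies, such as MIR5701 and MIR3118 on chromosome 15, have uncertain places.

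Most olfactory receptors, the receptors of smell, lay outside the domains of both stages (255), and most of the 135 in a G1 domain stayed. Of 392 receptors, 119 were in a domain in both stages, 16 left and 2 joined, and 11.9% of those in G1 left, beside 21.2% of all genes. All but 2 of those that left lay on chromosome 14, in the 800 kb cut described above. OR4N2, OR4Q2 and OR4K1 had 0 counts in both libraries and OR4K3 1 and 1. Each of the 16 had at most 1 count in either library. Of 32 genes of keratin-associated proteins, which build hair, in G1 domains, 2 left, KRTAP11-1 and KRTAP7-1.

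Channels and receptors of neurons gave small counts. Of 115 potassium channel symbols 12 stayed, 6 left and 2 joined, so that 33.3% of the 18 in G1 left, beside 21.2% of all genes. KCNQ3, KCNJ6, KCND3 and KCNJ15 lay in lost intervals, and KCNH5 and KCNMA1-AS1 at edges. KCND3, a channel of fast outward current, had 9 and 10 counts, and each of the others at most 2 in a library. The 2 that joined were KCNIP1 and KCNMB1. All 12 GABA receptor genes in G1 domains, of receptors for the main inhibitory transmitter, stayed, as did the 12 cadherins in G1 domains, which join cells. None of the 5 glutamate receptor symbols in G1 left and 3 joined, GRM7, its antisense GRM7-AS2 and GRIK3. CNTN4-AS1, in the merged domain of chromosome 3, was the one symbol of the contactin list that joined, while 8 contactin symbols, of proteins that guide axon contact, stayed.

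Several lists had nothing in any domain. Of 30 lists, 13 with 489 genes had no start in a G1 or S domain, among them HOX genes (43), histone clusters (63), cytosolic ribosomal proteins (79), proteasome subunits (50), replication licensing genes of the MCM and ORC kind (18) and clustered protocadherins (57). The 14 markers of colon epithelium, the tissue of origin of HCT116, lay outside too. So did 23891 of all 25765 genes, and whether these lists differ from that share was not tested. The files hold only positions for HCT116, so its markers could not be checked at the RNA level. Of the long noncoding symbols, 266 of 1485 LINC genes stayed, 55 left and 22 joined, and 17.1% of those in G1 left, beside 21.2% of all genes. Of 379 solute carriers, SLC22A3 left and SLC6A5 joined.

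**Figure D5:**
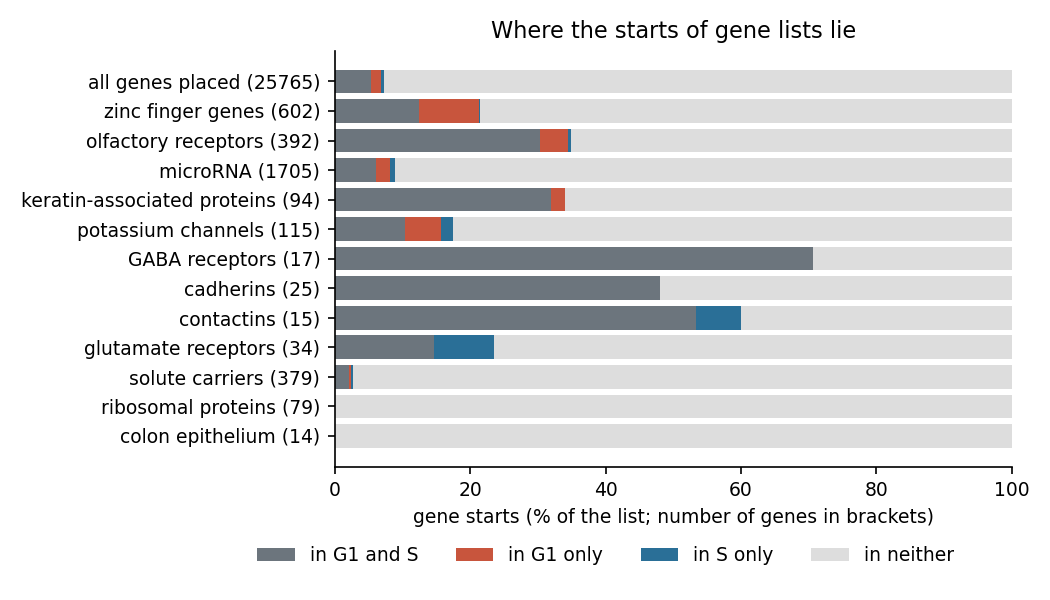
Share of the genes of 12 lists and of all genes (horizontal axis, %) that started in a domain in G1 and S, in G1 only, in S only or in neither, with the number of genes in brackets. Zinc finger genes have the widest part in G1 only, 8.80%, and GABA receptors the widest shared part, 70.6%.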

How the data were processed

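The authors deposited 1 consensus list of domain intervals per stage, without scores. The lists' titles name a hidden Markov model, and the labels tie each to the 2 replicates of its stage. The caller, its windows and the rule for combining replicates are not given in the sources used here. The RNA files hold counts per gene symbol, made by the authors with featureCounts 1.5.2 on hg19 and RefFlat, per the file headers, with strand ignored and a read counted for each gene it overlaps. The submitters' processing notes name Bowtie2 2.3.2, TopHat2 2.1.1, bedtools 2.26.0 and edgeR 3.24.3.

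Intervals sharing at least 1 base were grouped and classed with Python 3.11.15 and pandas 2.3.3, and the classing was tested on simulated lists. Of 27630 symbols, 25765 were placed by their start, leaving out those on several chromosomes, on both strands, not on an autosome or spanning over 3 Mb. Levels are counts or CPM, and detected means at least 1 CPM in both nuclear libraries. TMM factors came from edgeR 4.0.16 under R 4.3.3, for an alternative only.

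Named intervals were the 5 longest lost and gained, the 5 split and merged and the 5 kept with the most left or joined. Named genes were up to 4 by span in these stretches, the 8 with the highest nuclear level that left and that joined, and list members that left or joined, up to 4 by span. Members and lists were chosen with earlier results of these data known. No sample column went unused. Alternatives are under the processing heading below, and 2 of them were chosen after seeing the data. A gene that the naming rule picks is not reported here.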

Additional observations from a re-analysis of the deposited data

How the results depend on the processing

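The net loss of domain bases from G1 to S kept its sign under every alternative run, and 83 of 103 recomputed values moved by less than 1.5 times (counts, Mb) or stayed within the main share's 95% Wilson interval. Leaving out intervals of 200 kb or less gave 41 lost intervals, and leaving out those under 500 kb gave 38 lost intervals, 2 splits and 5 mergers. Each list was filtered on its own, so a G1 interval whose S counterpart was left out counts as lost in these settings. Joining gaps up to 300 kb left 3 mergers. With all chromosomes there were 11 gained intervals and 13 mergers. Leaving out intervals within 1 Mb of the longest gene-free stretch, chosen after seeing the data, left 0 splits and a net change of -22.3 Mb. There too the lists were filtered apart, and S intervals whose G1 counterpart was left out count as joined. Counting edges within 100 kb as unmoved gave 378 unmoved edges. The detected share outside domains was 64.7% with TMM factors, 68.5% with over 3 counts, 61.1% with at least 10 counts and 68.1% without genes under 300 exonic bases, and ran from 65.5% to 67.6% when 1 nuclear library was left out. The share of shared genes was 17.3% without short genes, 12.6% without chromosome 19 and 15.4% to 17.5% with 1 library left out. That of genes that left was 13.3% without chromosome 19, an alternative also chosen after seeing the data. The order shared, left, outside held under every setting, but without chromosome 19 shared (12.6%) and left (13.3%) were nearly equal. No replicate of the domain lists could be left out, as each stage has 1 list. No paired analysis was possible because the domain lists carry no replicates and no test was made. A count of 3 or fewer cannot show expression.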
